A study of Mus musculus with 23 samples.

Results

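The axon guidance ligands and receptors of mouse sciatic nerves (SNs) were followed through nerve injury and through loss of the microRNA biogenesis enzymes Dicer and Dgcr8 in myelinating Schwann cells (SCs). The members are the protein-coding genes whose GRCm38 symbols name a semaphorin of classes 3 to 7, a plexin, a neuropilin, an ephrin, an Eph receptor, a Slit, a Robo, a netrin or an Unc5 receptor. The rule uses no expression value, though it was set with earlier results of these data known. There are 67 such genes among the 43068 genes of the crush tables and the same 67 among the 22880 genes of the iKO tables. They comprise 20 semaphorins, 11 plexins and neuropilins, 8 ephrins, 14 Eph receptors, 3 Slits, 4 Robos, 3 netrins and 4 Unc5 receptors. One further annotated gene that fits the rule, Ntn3, was not analysed here.

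These families are known as the cues that steer growing axons, and they also guide cells and shape vessels. Semaphorins act through plexins, and the secreted class 3 members usually need a neuropilin as the binding subunit. Ephrins are bound to the cell surface, ephrin-A proteins by a lipid anchor and ephrin-B proteins by a membrane-spanning segment, and they activate Eph receptor tyrosine kinases on the neighbouring cell. Slits are secreted ligands of Robo receptors, and netrin-1 attracts through Dcc and repels through Unc5 receptors. In injured peripheral nerves, EphB2 on SCs and ephrin-B on fibroblasts are known to sort SCs into cords, and Sema4F is known to take part in the contact between SCs and axons.

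The crush experiment comprised 11 libraries of total RNA from wild-type C57BL/6J male mice of 2 months of age. SNs were taken distal to a forceps crush at 3 days post crush (dpc, n = 4), from the uninjured contralateral side (n = 4) and from mice without a crush (n = 3). The paper describes harvest of both nerves from crushed mice, so crushed and contralateral libraries may share animals. Which libraries share a mouse was not known here, and the groups were tested as independent. The inducible knockout (iKO) experiment comprised 12 libraries (n = 3 for each group) from mice of either sex at 3 months post tamoxifen (mpT). Dicer iKO and Dgcr8 iKO mice carried a CreERT2 transgene and were homozygous for floxed Dicer1 or floxed Dgcr8, and their controls were Cre-negative mice with the same floxed alleles. Mutants and controls all received tamoxifen at 8 to 10 weeks of age. The Cre is driven by regulatory sequence of myelinating SCs, so the other cells of the nerve kept both enzymes, and the mutant nerves sequenced had been selected by morphology. The crush and iKO libraries were named as prepared with different kits in the labels, and the comparisons below stayed within one experiment.

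Total counts ranged from 5594859 to 12806066 per library, and 3 counts corresponded to 0.234 to 0.536 CPM, the count scaled to the size of the library. Counts over the whole gene gave no check of the deletions, since they do not separate a floxed exon from the rest of a transcript. Dicer1 stood at 88.1, 87.4 and 90.5 CPM in Dicer controls and 81.3, 82.1 and 81.95 CPM in Dicer iKO nerves, and Dgcr8 at 38.4, 35.4 and 41.8 CPM in Dgcr8 controls and 39.4, 53.98 and 41.8 CPM in Dgcr8 iKO nerves. Neither gene was called in its mutant (adjusted p = 0.36 and 0.23). By PCR, the paper reports lower Dicer mRNA in Dicer iKO nerves and lower Dgcr8 mRNA in Dgcr8 iKO nerves than in their controls. Sox10, the transcription factor that defines SCs, was at 205 to 309 CPM in uninjured nerves and 92.3 to 134 CPM in crushed nerves. It was also detected at 173 to 317 CPM in all iKO controls.

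Dicer control libraries 1 and 2 stood apart from the third in the 4 markers listed for the perineurial sheath. The tight-junction gene Cldn1 was at 299.8, 218 and 36.9 CPM in Dicer controls 1, 2 and 3, at 76.8, 166 and 122 CPM in Dicer iKO nerves, at 6.26, 14.97 and 24.6 CPM in Dgcr8 controls and at 98.3, 92.98 and 60.2 CPM in Dgcr8 iKO nerves. Lypd2 was at 27, 15.1 and 2.16 CPM in the Dicer controls and at most 9.83 CPM in the other iKO libraries. The glucose transporter gene Slc2a1 was at 288, 191 and 118 CPM and the integrin gene Itgb4 at 853, 691 and 566 CPM in the same controls, so that all 4 markers were higher in controls 1 and 2 than in control 3. The 4 markers did not move as one in Dgcr8 iKO nerves, where Cldn1 rose (log2 fold change 2.44, adjusted p = 0.00028), Slc2a1 and Itgb4 fell (-0.55 and -0.81, adjusted p = 0.0063 and 0.011) and Lypd2 was not called (1.71, adjusted p = 0.065). Their sum was 422 to 537 CPM in Dgcr8 iKO nerves and 554 to 891 CPM in the controls, and 490 to 635 CPM in Dicer iKO nerves and 723 to 1468 CPM in the controls. What the Dicer comparison gave without controls 1 and 2 is described with its results.

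Per unit of transcript length, Sema3b, a secreted class 3 semaphorin, had the highest level of all members in each of the 7 groups. On the TPM scale it reached 1243 ± 67.9 TPM (SD, n = 3) in Dgcr8 controls, where the next member, Sema5a, reached 149.8 ± 19.2 TPM. The values of these 2 genes did not overlap between libraries. Behind Sema5a came Slit2 at 116 ± 8.39 TPM, Sema3g at 115 ± 12.1 TPM and Sema6c at 112 ± 8.396 TPM, and neighbours among these 3 overlapped between libraries. The 10 members with the highest level held 80.8% of the summed TPM of the family list in Dgcr8 controls and 64.9% in Dgcr8 iKO nerves. The corresponding shares were 73.2% in Dicer controls, 63.8% in Dicer iKO nerves, 71.7% in uncrushed, 74.6% in contralateral and 59.4% in crushed nerves.

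The order at the top of the list differed in crushed nerves. Sema3b remained first at 8.52 ± 1.76 TPM but its values overlapped those of the second member, Nrp2, at 6.08 ± 1.28 TPM, followed by Sema7a at 4.93 ± 1.03 TPM, Slit2 at 4.38 ± 0.794 TPM and Epha5 at 3.905 ± 1.003 TPM. In uncrushed nerves the order was Sema3b at 17.7 ± 5.81 TPM, Sema5a at 6.5 ± 2.65 TPM, Slit2 at 5.48 ± 2.42 TPM, Sema6d at 3.45 ± 1.51 TPM and Sema6c at 3.36 ± 1.11 TPM. Only the step from Sema3b to Sema5a was free of overlap among these. A single transcript of 109 bases took 61.4% to 71.8% of all TPM in the crush libraries, so TPM is used there only for the order of genes within a group.

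Crush injury changed the guidance genes in both directions. Against uncrushed nerves, 25 of the 59 members tested rose and 22 fell at 3 dpc, where 33.8% of all 17433 genes tested rose and 33.4% fell. The shares of members were 42.4% and 37.3%, and their difference from those of all genes was not tested. With protein-coding genes only, 5100 of 14620 genes rose and 5075 fell. The median log2 fold change was 0.013 for the members and -0.032 for all genes. Against contralateral nerves, 24 of 59 members rose and 21 fell, where 33.5% of 16667 genes rose and 32.9% fell, with medians of 0.0074 for the members and -0.059 for all genes. These 2 comparisons share the crushed libraries and are not independent of each other. Of the called members, 95.7% against uncrushed and 88.9% against contralateral nerves had no overlap between the groups. The shares were 91.1% and 87.3% of all genes called, and 65.6% and 59.4% of all genes tested. The 8 members that did not pass the filter on low counts (Efna3, Efna4, Efnb3, Epha1, Epha3, Epha8, Epha10 and Slit1) reached at most 1.89 CPM in any library of either comparison.

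**Figure D1:**
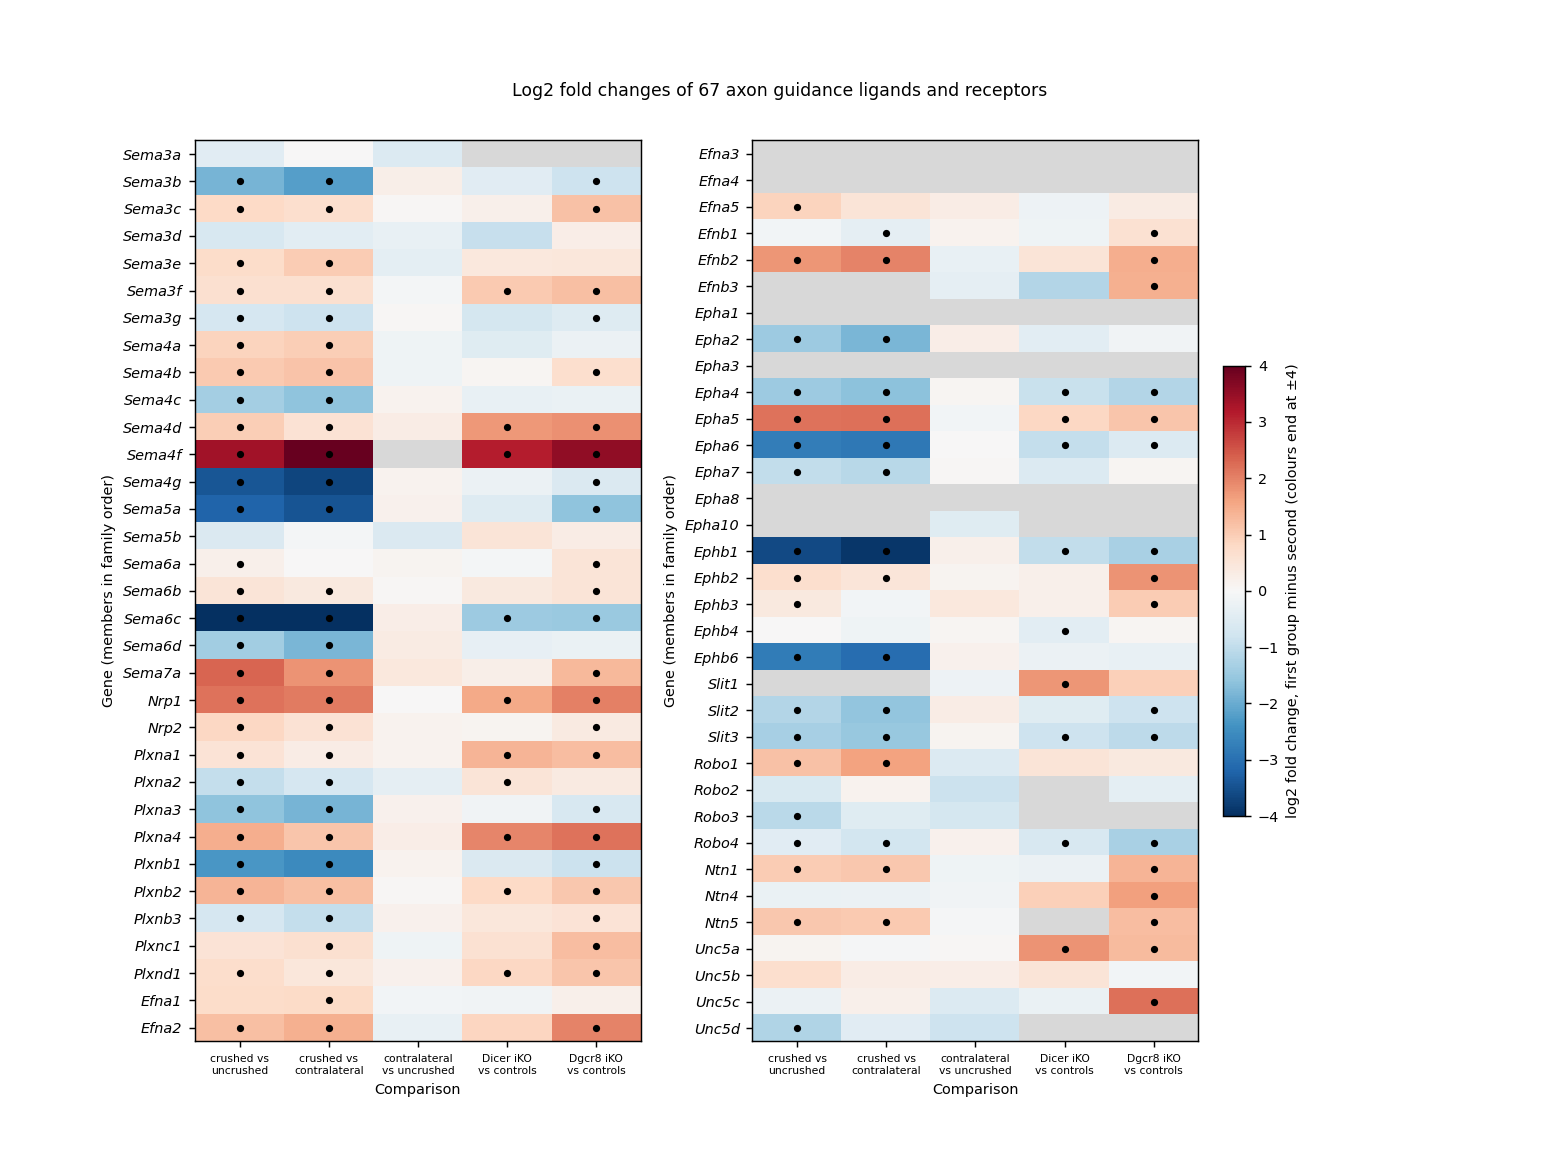
Log2 fold changes of the 67 members in 5 comparisons, coloured from blue (lower in the first group) to red (higher), with a black dot for an adjusted p of at most 0.05 and grey for genes not tested. Sema4f is red and Sema6c and Ephb1 are blue in all 4 comparisons with calls, and the column of contralateral against uncrushed nerves holds no dot.

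Among the ligands, Sema4f rose most. Its levels were 1.35, 0.75 and 1.36 CPM in uncrushed nerves, 0.943, 0.393, 0.702 and 0.615 CPM in contralateral nerves and 12.04, 10.4, 9.99 and 12.7 CPM at 3 dpc. All 4 crushed libraries lay above 9 CPM, and no uninjured library reached 2 CPM. Sema4f rose against uncrushed nerves (log2 fold change 3.37 ± 0.24 (SE), adjusted p = 1.3e-07) and against contralateral nerves (log2 fold change 4.11 ± 0.22 (SE), adjusted p = 7.9e-10). It passed the filter on low counts in both crush comparisons through its crushed libraries alone, as did Efna2, so these genes were tested because they were high there.

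The opposite end of the list was held by Sema6c, a transmembrane semaphorin of class 6. Its levels were 99.5, 79.9 and 68.3 CPM in uncrushed, 83.2, 122, 112 and 85.9 CPM in contralateral and 2.33, 2.77, 2.84 and 2.17 CPM in crushed nerves. The crushed libraries did not reach 3 CPM while every uninjured library was above 68 CPM. The log2 fold change was -4.93 ± 0.16 (SE) against uncrushed nerves (adjusted p = 2.8e-10) and -5.300 ± 0.17 against contralateral nerves (adjusted p = 3.9e-12).

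As the members that moved furthest in either direction after crush, Sema4f and Sema6c are shown with the promoter window of RefSeq (GRCm38.p6, 300 bases that span the transcription start, 5′ to 3′ on the strand of the gene). Sema4f lies on the minus strand of chromosome 6 (82911885 to 82939769) and Sema6c on the plus strand of chromosome 3 (95160457 to 95174024) in the GENCODE M21 annotation of the same assembly. The Sema4f window is chr6:82939720-82940019 and the Sema6c window, the first of 2 for this gene, is chr3:95160170-95160469. Capitals mark matches on either strand to the AP-1 motif TGANTCA, the TEAD motif GGAATG or the SOX motif ACAAAG.
Sema4f: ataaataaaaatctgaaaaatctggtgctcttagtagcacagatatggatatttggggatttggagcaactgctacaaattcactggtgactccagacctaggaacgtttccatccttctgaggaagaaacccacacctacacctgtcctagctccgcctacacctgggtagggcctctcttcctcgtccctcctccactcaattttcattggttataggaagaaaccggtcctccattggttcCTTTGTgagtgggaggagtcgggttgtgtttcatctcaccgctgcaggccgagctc
Sema6c: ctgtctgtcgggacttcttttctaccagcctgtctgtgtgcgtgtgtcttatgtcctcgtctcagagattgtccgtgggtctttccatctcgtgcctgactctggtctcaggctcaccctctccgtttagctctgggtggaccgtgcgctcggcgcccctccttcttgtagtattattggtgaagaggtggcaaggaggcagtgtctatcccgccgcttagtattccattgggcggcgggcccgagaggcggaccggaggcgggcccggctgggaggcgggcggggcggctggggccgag
The Sema4f window holds 1 SOX match that starts 6 bases before the start site, and the Sema6c window holds no match to the 3 motifs. GC content is 48.7% in the Sema4f window and 62.7% in the Sema6c window, against a median of 52.7% over all 32851 windows. Of all windows, 7.81% hold the AP-1 motif, 14.7% the TEAD motif and 18.7% the SOX motif. Windows were matched for 58 members (74 windows), of which 3 hold AP-1, 8 TEAD and 10 SOX matches. These matches are letters in a window and do not show binding.

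**Figure D2:**
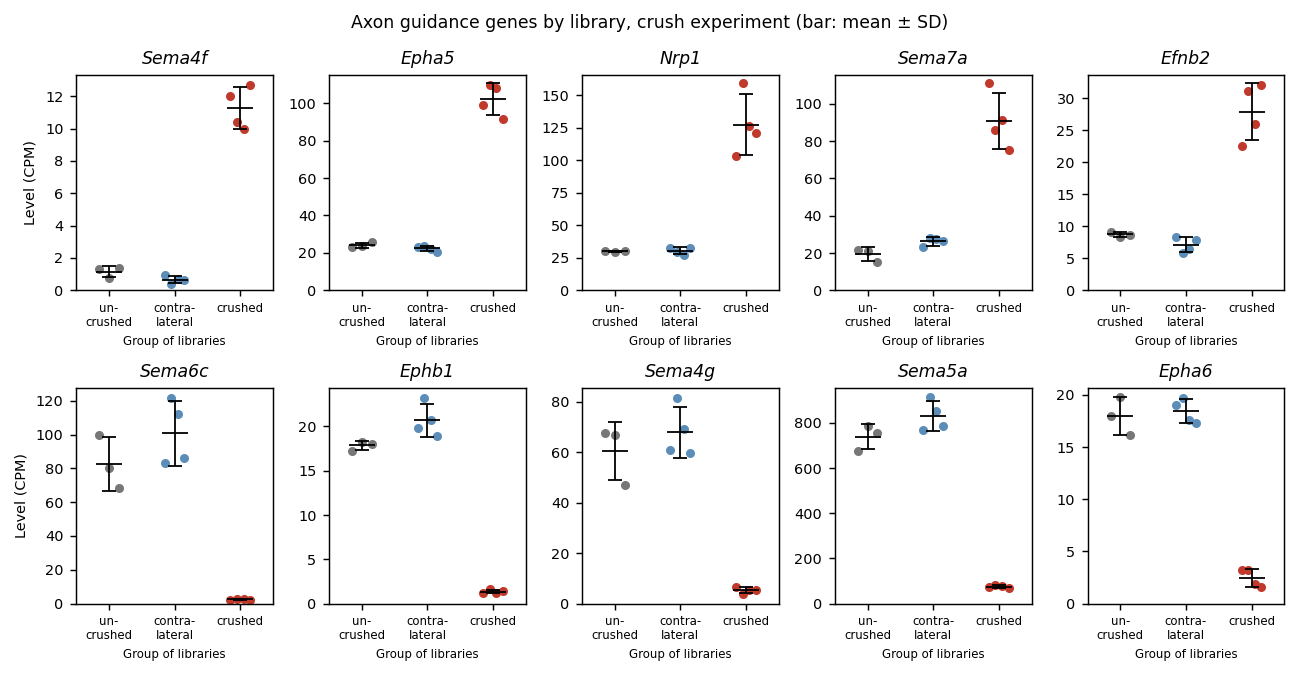
Level in CPM (vertical axis, from 0) of 10 members in each library of uncrushed, contralateral and crushed nerves, with points for libraries and bars for mean ± SD. In the upper row the 4 crushed libraries lie above all 7 uninjured libraries, and in the lower row they lie below them. The members shown were taken from called members without overlap, so the choice set this separation.

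Of the 20 semaphorins, 10 rose and 7 fell against uncrushed nerves, and 9 rose and 7 fell against contralateral nerves. Sema6a rose against uncrushed nerves only, a call lost in 4 of the 7 fits that left out a library (adjusted p of 0.076 to 0.14). Sema7a, a lipid-anchored semaphorin that binds Plxnc1 and β1 integrins, was at 21.6, 21.3 and 15 CPM in uncrushed, 23.01, 28.1, 27.5 and 26.5 CPM in contralateral and 111, 86.2, 91.6 and 75.3 CPM in crushed nerves. No crushed library overlapped the uninjured ones. It rose by 2.32 ± 0.16 (SE) on the log2 scale against uncrushed nerves (adjusted p = 1.4e-07) and by 1.81 ± 0.11 against contralateral nerves (adjusted p = 4.5e-09).

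Several abundant semaphorins of the uninjured nerve fell. Sema5a, a transmembrane semaphorin with thrombospondin repeats, stood at 676, 785 and 756 CPM in uncrushed, 769.9, 913, 852 and 784 CPM in contralateral and 71.3, 81.5, 78.1 and 69.3 CPM in crushed nerves. That is a drop in every crushed library (log2 fold change -3.197 ± 0.10 (SE), adjusted p = 2.3e-10 against uncrushed, and log2 fold change -3.45 ± 0.094 (SE), adjusted p = 1.1e-12 against contralateral nerves). Sema3b had 546, 529 and 517 CPM in uncrushed, 556, 755, 665 and 551 CPM in contralateral and 166, 131, 129 and 114 CPM in crushed nerves, without overlap. Its log2 fold changes were -1.87 ± 0.12 (SE, adjusted p = 8.2e-08) and -2.21 ± 0.13 (adjusted p = 2.8e-09).
Sema4g had 67.7, 66.8 and 47.2 CPM in uncrushed, 61.1, 81.7, 69.1 and 59.7 CPM in contralateral and 6.42, 3.67, 5.59 and 5.28 CPM in crushed nerves. It fell without overlap in both comparisons, with log2 fold changes of -3.44 ± 0.19 and -3.68 ± 0.16 (adjusted p = 1.4e-08 and 9.2e-11). Sema4c, Sema6d and Sema3g fell in both comparisons too, whereas the secreted Sema3c, Sema3e and Sema3f and the membrane-bound Sema4a, Sema4b, Sema4d and Sema6b rose in both. The Sema6b call against contralateral nerves was lost in 4 of the 8 fits that left out a library (adjusted p of 0.065 to 0.072). Sema3a, a repellent of sensory axons, was at 2.79, 5.63 and 8.69 CPM in uncrushed, 3.68, 2.04, 4.11 and 5.13 CPM in contralateral and 3.93, 3.67, 2.75 and 4.24 CPM in crushed nerves. The groups overlapped, and Sema3a was not called in either comparison (-0.46, 95% interval -1.09 to 0.16, and 0.0078, 95% interval -0.48 to 0.49, on the log2 scale). Without uncrushed replicate 1, the fall of Sema3a against uncrushed nerves passed the test (log2 fold change -0.79, adjusted p = 0.017).

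Both neuropilins rose. Nrp1, the binding subunit for Sema3A and a co-receptor for VEGF, was at 30.6, 29.8 and 30.2 CPM in uncrushed, 32.4, 29.4, 27.1 and 32.5 CPM in contralateral and 103, 159, 127 and 121 CPM in crushed nerves. Every crushed library was more than 3 times the highest uninjured one. Nrp1 rose by 2.18 ± 0.13 (SE) against uncrushed and 2.08 ± 0.11 against contralateral nerves on the log2 scale (adjusted p = 4.3e-08 and 9.0e-10). Nrp2, which favours Sema3F, ranged over 120.1 to 133 CPM in uncrushed, 127 to 149.8 CPM in contralateral and 180.0 to 224 CPM in crushed nerves (0.82 and 0.58 on the log2 scale, adjusted p = 1.6e-05 and 3.9e-05).

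The plexins were divided. Of the 9 plexins, 4 rose and 4 fell against uncrushed nerves, and 5 rose and 4 fell against contralateral nerves. Plxnc1 rose against contralateral nerves only, a call lost in 3 of the 8 fits that left out a library (adjusted p of 0.054 to 0.15). Plxnb2 had 50.97, 42.8 and 46.7 CPM in uncrushed, 47.5, 48.7, 47.6 and 51.99 CPM in contralateral and 93.9, 132, 121 and 102 CPM in crushed nerves, with no overlap. Its log2 fold changes were 1.36 ± 0.12 (SE, adjusted p = 1.3e-06) and 1.21 ± 0.094 (adjusted p = 3.7e-08). Plxna4, which pairs with Nrp1 as a receptor for Sema3A, had 7.28, 5.75 and 8.18 CPM in uncrushed, 8.02, 7.304, 8.23 and 10.3 CPM in contralateral and 19.7, 18.2, 18.2 and 16.4 CPM in crushed nerves. It rose by 1.47 ± 0.14 and 1.12 ± 0.11 on the log2 scale (adjusted p = 1.8e-06 and 7.1e-07).
Plxnb1, a receptor for Sema4D, moved the other way, with 116, 116 and 107 CPM in uncrushed, 107, 150.2, 123 and 119.9 CPM in contralateral and 25.9, 18.4, 23.2 and 17.1 CPM in crushed nerves. The crushed libraries were all below 26 CPM and the uninjured ones all above 100 CPM (log2 fold change -2.32 ± 0.13 (SE), adjusted p = 2.4e-08, and log2 fold change -2.55 ± 0.14 (SE), adjusted p = 9.7e-10). Plxna2, Plxna3 and Plxnb3 also fell in both comparisons. Plxnd1, a receptor for Sema3E, ranged over 59.5 to 66.4 CPM in uncrushed, 58.9 to 80.97 CPM in contralateral and 85.6 to 112 CPM in crushed nerves, and rose by 0.71 and 0.45 on the log2 scale (adjusted p = 7.5e-05 and 0.001).

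Ephrins rose or were not called against uncrushed nerves, and Eph receptors mostly fell. Of the 5 ephrins tested, 3 rose and 0 fell against uncrushed nerves, and 3 rose and 1, Efnb1, fell against contralateral nerves. The Efnb1 call was lost without contralateral replicate 2 (adjusted p = 0.071). Efna1 rose against contralateral nerves only and passed the filter there through the crushed libraries alone. Its call was lost in 5 of the 8 fits that left out a library (adjusted p of 0.072 to 0.11). Of the 10 Eph receptors tested, 3 rose and 6 fell against uncrushed nerves and 2 rose and 6 fell against contralateral nerves. Ephb3 rose against uncrushed nerves only, a call lost in 5 of the 7 fits that left out a library (adjusted p of 0.062 to 0.12). Efnb2, an ephrin-B ligand that is also a marker of arteries, had 9.17, 8.38 and 8.69 CPM in uncrushed, 8.39, 5.81, 6.42 and 7.896 CPM in contralateral and 22.5, 31.1, 26.04 and 32.05 CPM in crushed nerves. The crushed libraries were all higher (log2 fold change 1.77 ± 0.15 (SE), adjusted p = 7.7e-07, and log2 fold change 1.99 ± 0.14 (SE), adjusted p = 1.9e-08). Efna2 rose at low levels, with 0.629 to 1.704 CPM in uncrushed, 0.628 to 1.104 CPM in contralateral and 2.17 to 2.48 CPM in crushed nerves (1.21 and 1.42 on the log2 scale, adjusted p = 0.007 and 2.7e-04). Efna5 was at 1.38 to 1.704 CPM in uncrushed, 1.73 to 1.95 CPM in contralateral and 1.93 to 3.01 CPM in crushed nerves, and was called higher against uncrushed nerves (adjusted p = 0.014) and not against contralateral nerves (adjusted p = 0.06, or 0.037 without crushed replicate 1).

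Epha5 was the Eph receptor that rose most. It had 23.1, 23.6 and 25.7 CPM in uncrushed, 23.3, 23.7, 22.1 and 20.5 CPM in contralateral and 98.9, 110.0, 108 and 91.6 CPM in crushed nerves. The lowest crushed library was above 90 CPM and the highest uninjured one below 26 CPM (log2 fold change 2.19 ± 0.096 (SE), adjusted p = 2.3e-09, and log2 fold change 2.200 ± 0.084 (SE), adjusted p = 2.0e-11). Ephb2 rose by 0.67 against uncrushed and 0.47 against contralateral nerves on the log2 scale (adjusted p = 4.9e-04 and 0.0027), with 10.01 to 13.1 CPM in uncrushed, 9.83 to 14.3 CPM in contralateral and 15.97 to 18.4 CPM in crushed nerves.
Ephb1 had 17.3, 18.3 and 18.1 CPM in uncrushed, 19.8, 23.2, 20.8 and 18.9 CPM in contralateral and 1.204, 1.63, 1.19 and 1.41 CPM in crushed nerves. Its crushed values were all below 2 CPM (log2 fold change -3.600 ± 0.16 (SE), adjusted p = 3.1e-09, and log2 fold change -3.903 ± 0.15 (SE), adjusted p = 2.7e-11). Ephb6, a kinase-defective member, had 70.3, 68.7 and 68.2 CPM in uncrushed, 60.6, 89.5, 89.4 and 72.7 CPM in contralateral and 12.04, 9.37, 7.61 and 8.11 CPM in crushed nerves, and fell with log2 fold changes of -2.79 ± 0.14 and -3.05 ± 0.16 (adjusted p = 6.0e-09 and 6.1e-10). Epha6 had 17.98, 19.8 and 16.2 CPM in uncrushed, 19.1, 19.7, 17.6 and 17.3 CPM in contralateral and 3.21, 3.18, 1.83 and 1.602 CPM in crushed nerves, also without overlap (log2 fold change -2.75 ± 0.21 (SE), adjusted p = 3.1e-07, and log2 fold change -2.87 ± 0.18 (SE), adjusted p = 3.4e-09). Epha4, a receptor for ephrins of both classes, fell, with 11.4 to 15.5 CPM in uncrushed, 13.02 to 14.9 CPM in contralateral and 4.13 to 4.98 CPM in crushed nerves (-1.45 and -1.63 on the log2 scale, adjusted p = 7.4e-06 and 2.6e-08), and Epha2 and Epha7 fell with it in both comparisons.

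In the Slit and Robo families, the ligands Slit2 and Slit3 fell and the receptor Robo1 rose, while Slit1 was not tested. Slit2 had 230.0, 287 and 256 CPM in uncrushed, 301, 361, 327 and 283 CPM in contralateral and 116, 109.6, 107 and 93.9 CPM in crushed nerves, with log2 fold changes of -1.17 ± 0.11 and -1.57 ± 0.098 (adjusted p = 1.1e-06 and 3.7e-09). Slit3, known as a ligand of Robo1 on SCs of the nerve bridge, had 32.8, 34.6 and 36.1 CPM in uncrushed, 32.6, 41.2, 39.2 and 36.7 CPM in contralateral and 13.8, 14.7, 11.4 and 11.6 CPM in crushed nerves, with log2 fold changes of -1.31 ± 0.11 and -1.52 ± 0.11 (adjusted p = 6.9e-07 and 1.9e-08). Robo1 stood at 4.32, 3.002 and 4.77 CPM in uncrushed, 3.301, 1.81, 2.91 and 3.08 CPM in contralateral and 6.18, 10.1, 8.25 and 8.95 CPM in crushed nerves. Each crushed library was above every uninjured one (log2 fold change 1.16 ± 0.22 (SE), adjusted p = 5.4e-04, and log2 fold change 1.62 ± 0.20 (SE), adjusted p = 5.7e-06). Robo4, a receptor of endothelial cells, fell, with 7.25 to 8.99 CPM in uncrushed, 7.83 to 11.2 CPM in contralateral and 5.23 to 6.099 CPM in crushed nerves (-0.46 and -0.73, adjusted p = 0.023 and 6.9e-04), and the first of these calls was lost without crushed replicate 3 (adjusted p = 0.057) or uncrushed replicate 1 (adjusted p = 0.13). Robo3 was called lower against uncrushed nerves only (-1.07, adjusted p = 0.019), passed the filter through the uncrushed libraries alone and lost the call without uncrushed replicate 1 (adjusted p = 0.12). Of 8 endothelial markers, 4 rose and 2 fell against uncrushed nerves, and their summed level was 265 to 299.7 CPM in crushed and 249.5 to 285 CPM in uncrushed nerves.

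Among netrins, Ntn1 and Ntn5 rose in both comparisons and Ntn4 was called in neither. Ntn1 was at 11.5, 9.51 and 9.37 CPM in uncrushed, 10.9, 7.85, 8.93 and 9.13 CPM in contralateral and 18.5, 21.6, 18.1 and 18.5 CPM in crushed nerves, without overlap (log2 fold change 1.003 ± 0.13 (SE), adjusted p = 2.4e-05, and log2 fold change 1.07 ± 0.11 (SE), adjusted p = 1.1e-06). None of the 4 Unc5 receptors rose, and 1, Unc5d, fell against uncrushed nerves only (-1.197 on the log2 scale, adjusted p = 0.0087, against -0.45 and adjusted p = 0.22 in the comparison with contralateral nerves). Unc5b was at 0.809 to 1.53 CPM in uncrushed, 1.1 to 1.64 CPM in contralateral and 1.01 to 2.28 CPM in crushed nerves, and its log2 fold changes of 0.66 (95% interval -0.076 to 1.39) and 0.28 (95% interval -0.29 to 0.86) did not pass the test.

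No member was called between contralateral and uncrushed nerves, which does not show that the groups were alike. Of 61 members tested, 0 rose and 0 fell by edgeR's quasi-likelihood test, where 0.0% and 0.0% of 17722 genes were called higher and lower. An unadjusted p of at most 0.05 was reached by 9 members and by 3165 of all genes. DESeq2 called 0 members, and 18 genes higher and 232 lower. The median log2 fold change was 0.050 for the members and -0.018 for all genes.

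The cell composition of the nerves changed with the crush as well, and in these bulk samples fewer cells of a type and less RNA per cell cannot be told apart. The summed level of 7 macrophage markers was 416 to 766 CPM in crushed, 97.8 to 109.9 CPM in uncrushed and 65.3 to 129 CPM in contralateral nerves, and all 7 rose in both comparisons. The 5 proliferation markers summed to 724 to 1089.7 CPM in crushed and 36.8 to 39.2 CPM in uncrushed nerves. The 6 myelinating SC markers summed to 791 to 1167 CPM in crushed and 22832 to 25175 CPM in uncrushed nerves, and all 6 fell. Their part in the changes of the guidance genes was not tested.

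**Figure D3:**
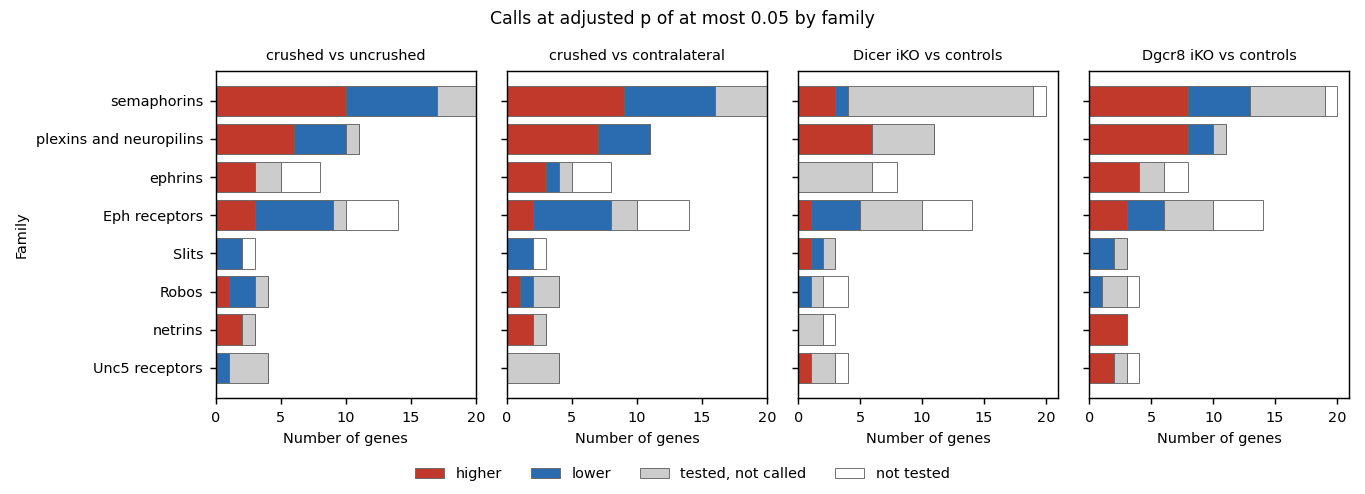
Number of genes (horizontal axis) per family called higher (red), called lower (blue), tested without a call (grey) or not tested (white) in 4 comparisons. Plexins and neuropilins hold 6 genes called higher and 0 called lower in Dicer iKO nerves, and Slits hold 0 called higher and 2 called lower in both crush comparisons.

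Loss of Dicer from myelinating SCs raised and lowered fewer guidance genes. In Dicer iKO nerves at 3 mpT, 12 of the 56 members tested rose and 7 fell, where 12.3% of 13045 genes rose and 8.88% fell. The shares of members were 21.4% and 12.5%, and the median log2 fold change was 0.00050 for the members and -0.0079 for all genes. All 19 called members were without overlap between mutants and controls, as were 99.9% of all 2764 genes called and 41.9% of all genes tested. The 11 members not tested reached at most 3.88 CPM, the highest being Ntn5 in 1 mutant library.

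These counts depended on single libraries. Without Dicer iKO replicate 2, 7 members rose and 1 fell, and without Dicer iKO replicate 3 the numbers were the same. In both cases the remaining calls were those of Nrp1, Plxna1, Plxna4, Plxnd1, Sema4d, Sema4f and Unc5a, all higher, and of Epha4, lower. Calls over all genes fell too, to 702 higher and 177 lower of 13226 without replicate 2. Without replicate 3 they were 668 and 173 of 13237. Among the members, lower calls numbered 3 without Dicer control replicate 2, where 259 of 13266 genes were lower. With Dicer control 3 as the only control (n = 1, assumed to vary like the other libraries), 15 members passed as higher and 14 as lower, and 9 of the 12 higher and 4 of the 7 lower calls were shared with the full comparison. The calls of Epha5, Sema3f and Slit1, higher, and of Epha6, Ephb4 and Robo4, lower, were lost there (adjusted p of 0.066 to 0.19). That control was kept after its values were seen, so this comparison is a description and calls gained in it are not support.

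Plexins made up the largest family of higher calls: 5 of 9 plexins rose and 0 fell, and 1 of the 2 neuropilins rose. Of these, the calls of Plxna2 and Plxnb2 were lost in 5 and 3 of the 6 fits that left out a library (adjusted p of 0.078 to 0.16). Plxna4 was at 12.78, 11.2 and 8.78 CPM in Dicer controls and 34.7, 46.8 and 46.8 CPM in Dicer iKO nerves. Its lowest mutant value was more than 2 times its highest control value (log2 fold change 1.97 ± 0.19 (SE), adjusted p = 0.0017). Plxna1, another receptor subunit for class 3 and class 6 semaphorins, had 58.9, 62.02 and 66.6 CPM in controls and 130.3, 159.9 and 189 CPM in mutants (log2 fold change 1.36 ± 0.15 (SE), adjusted p = 0.0024). Nrp1 had 78.7, 55.4 and 41.3 CPM in controls and 136, 193 and 167 CPM in mutants, where the spread among controls was wide but no value overlapped (log2 fold change 1.502 ± 0.24 (SE), adjusted p = 0.0066). Plxnd1 was at 109 to 131 CPM in controls and 188 to 239 CPM in mutants (0.83 on the log2 scale, adjusted p = 0.0061), and Nrp2, at 148 to 169.9 CPM in controls and 167 to 171 CPM in mutants, was not called (adjusted p = 0.43).

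Among the ligands, Sema4f again had the largest rise. It had 1.87, 1.06 and 0.811 CPM in Dicer controls and 7.72, 13.3 and 12.2 CPM in Dicer iKO nerves (log2 fold change 3.14 ± 0.37 (SE), adjusted p = 0.0028). It passed the filter, set at 1.37 CPM in 3 libraries, through the mutants alone, so it was tested because it was high there. Sema4d, a membrane semaphorin of immune cells and oligodendrocytes that binds B-type plexins, was at 10.6, 7.54 and 7.57 CPM in controls and 22.5, 29.7 and 32.5 CPM in mutants (log2 fold change 1.72 ± 0.21 (SE), adjusted p = 0.003). Both were separated from their controls in every library. Sema3f had 6.32, 7.54 and 10.1 CPM in controls and 15.97, 18.5 and 15.6 CPM in mutants (log2 fold change 1.06 ± 0.21 (SE), adjusted p = 0.013), a call that was lost without Dicer iKO replicate 2 or 3 (adjusted p = 0.063 and 0.053) or without Dicer control 2 (adjusted p = 0.061). Slit1, at 1.87, 1.06 and 2.43 CPM in controls and 5.59, 7.07 and 5.68 CPM in mutants, rose as well (log2 fold change 1.77 ± 0.34 (SE), adjusted p = 0.013), and so did the netrin receptor Unc5a, at 2.44, 2.78 and 3.38 CPM in controls and 10.8, 8.63 and 10.2 CPM in mutants (log2 fold change 1.78 ± 0.23 (SE), adjusted p = 0.0036). Slit1 also passed the filter through the mutants alone, and its call was lost without Dicer iKO replicate 2 or 3 (adjusted p = 0.061 and 0.054).

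The members that fell in Dicer iKO nerves were Sema6c, Epha4, Epha6, Ephb1, Ephb4, Slit3 and Robo4. Sema6c had 90.5, 135 and 214 CPM in controls 1, 2 and 3 and 56.8, 47.6 and 55.6 CPM in mutants, so the controls differed among themselves more than the mutants did (log2 fold change -1.45 ± 0.28 (SE), adjusted p = 0.013). Epha4 was at 23.8, 19.8 and 25.4 CPM in controls and 12.78, 10.7 and 13.3 CPM in mutants (log2 fold change -0.90 ± 0.16 (SE), adjusted p = 0.0091), and Ephb1 at 20.3, 23.7 and 30.4 and 15.4, 11.04 and 10.8 CPM (log2 fold change -0.99 ± 0.21 (SE), adjusted p = 0.017). The lowest control of each was above the highest mutant. Without Dicer iKO replicate 2 or 3, the calls were lost for Sema6c (adjusted p = 0.069 and 0.067) and Ephb1 (adjusted p = 0.080 and 0.084), the latter also without Dicer control 2 (adjusted p = 0.060), and Epha4 was called whichever library was left out.
Epha6 had 19.7, 27.2 and 21.8 CPM in controls and 14.9, 11.7 and 8.998 CPM in mutants (log2 fold change -0.94 ± 0.22 (SE), adjusted p = 0.022), and Slit3 had 69.5, 51.04 and 75.1 and 46.99, 28.98 and 32.8 CPM (log2 fold change -0.84 ± 0.21 (SE), adjusted p = 0.029). Neither overlapped. The calls were lost without Dicer iKO replicate 2 or 3 for Epha6 (adjusted p = 0.090 and 0.085) and Slit3 (adjusted p = 0.11 and 0.12), and for Epha6 without Dicer control 2 (adjusted p = 0.088). Robo4 was at 16.1, 16.8 and 14.7 CPM in controls and 11.6, 9.32 and 9.83 CPM in mutants (log2 fold change -0.63 ± 0.16 (SE), adjusted p = 0.029), and Ephb4, the venous receptor of ephrin-B2, at 52.6, 49.1 and 46.7 and 37.8, 36.7 and 36.5 CPM (log2 fold change -0.41 ± 0.096 (SE), adjusted p = 0.022). Their calls were lost without Dicer iKO replicate 2 or 3 or Dicer control 2 (adjusted p of 0.11 to 0.12 for Robo4 and 0.080 to 0.090 for Ephb4), and that of Robo4 also without Dicer control 1 (adjusted p = 0.052). Of 8 endothelial markers 1 fell and 0 rose in this comparison, and their summed level was 271 to 322 CPM in mutants and 384 to 442 CPM in controls, without overlap. Their part in the values of Robo4 and Ephb4 was not tested.

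Dgcr8 iKO nerves showed more calls. Of 58 members tested, 28 rose and 13 fell, where 23.9% of 13252 genes rose and 20.6% fell. The share of members that rose, 48.3%, was higher than that of all genes, and the share that fell was 22.4%. The median log2 fold change was 0.42 for the members and -0.014 for all genes. No overlap between mutants and controls was found for 39 of the 41 called members (95.1%), against 97.9% of all 5898 genes called and 55.9% of all genes tested. At least a 2-fold change was met by 22 of the higher and 6 of the lower calls. Over all genes it was met by 1778 of 3165 higher and 926 of 2733 lower calls.

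**Figure D4:**
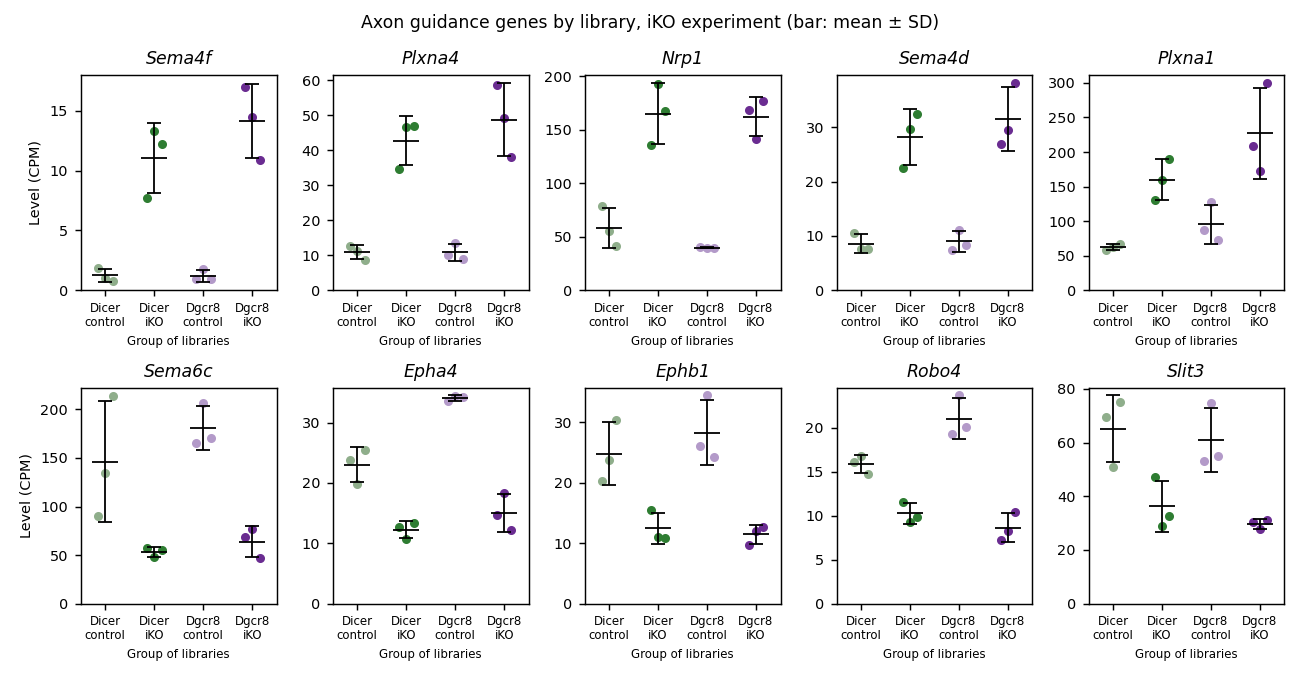
Level in CPM (vertical axis, from 0) of 10 members in each library of Dicer and Dgcr8 iKO nerves and their controls, with points for libraries and bars for mean ± SD (n = 3). The mutants lie above their own controls in the upper row and below them in the lower row for all 10 members. They were taken from members called without overlap in at least 1 mutant, so the choice favoured this separation.

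Sema4f was at 0.944, 1.77 and 0.933 CPM in Dgcr8 controls and 16.99, 14.5 and 10.8 CPM in Dgcr8 iKO nerves (log2 fold change 3.55 ± 0.31 (SE), adjusted p = 9.7e-06). Plxna4 had 10.2, 13.6 and 8.91 CPM in controls and 58.7, 49.3 and 38.02 CPM in mutants (log2 fold change 2.17 ± 0.20 (SE), adjusted p = 1.5e-05), and Nrp1 had 40.4, 40 and 39.6 and 168, 142 and 177 CPM (log2 fold change 2.02 ± 0.13 (SE), adjusted p = 1.9e-06). These 3 were far above their controls in each mutant library. Sema4f, Efna2 and Ntn5 passed the filter, set at 1.19 CPM in 3 libraries, through the Dgcr8 iKO libraries alone, so they were tested because they were high there. Sema4d was at 7.44, 11.2 and 8.395 CPM in controls and 27.01, 29.5 and 38.1 CPM in mutants (log2 fold change 1.81 ± 0.19 (SE), adjusted p = 3.7e-05).
Plexins and neuropilins together held 8 genes that rose and 2, Plxna3 and Plxnb1, that fell among 11. Plxnb1 was at 229, 282 and 186 CPM in controls and 124, 146 and 112 CPM in mutants (log2 fold change -0.87 ± 0.17 (SE), adjusted p = 0.0016). Plxnd1 was at 90.8 to 161 CPM in controls and 232 to 343 CPM in mutants (1.104 on the log2 scale, adjusted p = 0.0018), and Nrp2 at 118 to 143 and 159 to 180.2 CPM (0.35, adjusted p = 0.041). The Nrp2 call was lost on leaving out any 1 of the 6 libraries other than Dgcr8 control 2 (adjusted p of 0.065 to 0.15). Plxnb3, which binds Sema5A, was called higher here (0.56, adjusted p = 0.023) and was the 1 member called lower in both crush comparisons and higher in Dgcr8 iKO nerves. This call was lost without Dgcr8 control 1 or 3 or Dgcr8 iKO replicate 1 (adjusted p of 0.087 to 0.096) and with all groups in one fit.

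All 3 ephrin-B genes and the netrins Ntn1 and Ntn4 rose in Dgcr8 iKO nerves. Efnb3 was not called with all groups in one fit. The third netrin, Ntn5, was called higher (1.23, adjusted p = 0.04) with 0.944, 1.22 and 1.66 CPM in controls and 3.303, 4.196 and 1.52 CPM in mutants, which overlapped. Its call was lost with DESeq2, with the replicate block, with all groups in one fit and in 5 of the 6 fits that left out a library (adjusted p of 0.054 to 0.17). Efnb2 was at 7.32, 10.7 and 9.22 CPM in controls and 23, 25.7 and 25.7 CPM in mutants (log2 fold change 1.45 ± 0.17 (SE), adjusted p = 7.0e-05). Its receptor Ephb2 was at 10.6, 11.2 and 12.2 and 42.9, 37.4 and 38.7 CPM (log2 fold change 1.802 ± 0.14 (SE), adjusted p = 5.0e-06). Both were raised without overlap in every mutant library. Ntn1 had 23.5, 36.9 and 44.05 CPM in controls and 98.3, 93.4 and 78.5 CPM in mutants (log2 fold change 1.37 ± 0.20 (SE), adjusted p = 2.6e-04), and Ntn4, a netrin of basement membranes, had 21.8, 22.9 and 26.7 and 91.1, 67.6 and 65.7 CPM (log2 fold change 1.65 ± 0.16 (SE), adjusted p = 1.9e-05). Unc5c, a netrin receptor, was at 2.36, 2.58 and 2.49 CPM in controls and 9.55, 11.4 and 13.1 CPM in mutants (log2 fold change 2.19 ± 0.23 (SE), adjusted p = 3.3e-05). Efna2 rose at low levels, with 0.59, 0.544 and 0.207 CPM in controls and 2.12, 1.62 and 1.52 CPM in mutants (log2 fold change 1.97 ± 0.50 (SE), adjusted p = 0.008).

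Robo1, Efna5 and Unc5b were not called in either mutant. Robo1 had 9.19, 4.76 and 4.73 CPM in Dicer controls, 5.86, 9.49 and 11.1 CPM in Dicer iKO, 5.55, 7.21 and 4.77 CPM in Dgcr8 controls and 6.25, 7.63 and 8.75 CPM in Dgcr8 iKO nerves. Mutants and controls overlapped in both experiments, and the 95% intervals of the log2 fold change were -0.18 to 1.19 and -0.09 to 0.84. Sema3a did not pass the filter in the iKO libraries and reached at most 1.997 CPM there.

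Of the genes that fell, Sema5a was at 815, 1132 and 808 CPM in Dgcr8 controls and 247, 411 and 244 CPM in Dgcr8 iKO nerves (log2 fold change -1.61 ± 0.23 (SE), adjusted p = 2.4e-04), and Sema6c was at 165, 207 and 171 and 68.4, 76.8 and 46.7 CPM (log2 fold change -1.500 ± 0.18 (SE), adjusted p = 7.6e-05). No mutant library reached the lowest control. Ephb1 had 26.1, 34.4 and 24.3 CPM in controls and 9.67, 12.02 and 12.7 CPM in mutants (log2 fold change -1.296 ± 0.18 (SE), adjusted p = 1.8e-04), and Epha4 had 33.5, 34.4 and 34.3 and 14.6, 18.4 and 12.1 CPM (log2 fold change -1.17 ± 0.16 (SE), adjusted p = 1.8e-04). Epha4 showed the narrowest controls of these, within 1 CPM of each other.
The Slits Slit2 and Slit3 both fell. Slit2 had 397, 452 and 372 CPM in controls and 219.9, 269 and 201 CPM in mutants (log2 fold change -0.82 ± 0.15 (SE), adjusted p = 0.0013), and Slit3 had 53.1, 74.8 and 54.8 and 30.4, 27.7 and 31.3 CPM (log2 fold change -1.03 ± 0.15 (SE), adjusted p = 2.6e-04). Robo4 had 19.2, 23.7 and 20.1 CPM in controls and 7.195, 8.297 and 10.4 CPM in mutants (log2 fold change -1.28 ± 0.18 (SE), adjusted p = 2.2e-04), beside 4 of 8 endothelial markers that fell and 0 that rose, whose summed level was 316 to 379.6 CPM in mutants and 422 to 524 CPM in controls. The part of these markers was not tested.

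The calls of the 2 mutants, which have separate controls, can be set against each other. Of the 12 members that rose in Dicer iKO nerves, 10 (83.3%) also rose in Dgcr8 iKO nerves, where they were 35.7% of 28. Of the 7 that fell, 6 (85.7%) also fell in Dgcr8 iKO nerves, 46.2% of 13. Over all genes, 86.9% of the 1605 that rose and 80.5% of the 1159 that fell in Dicer iKO nerves did so in Dgcr8 iKO nerves too (44% of 3165 and 34.1% of 2733), so the members' shares lay near those of genes in general. Epha5, Nrp1, Plxna1, Plxna4, Plxnb2, Plxnd1, Sema3f, Sema4d and Sema4f rose in both mutants and in both crush comparisons. Epha4, Epha6, Ephb1, Robo4, Sema6c and Slit3 fell in all 4 comparisons. The Dgcr8 iKO call of Epha6 was lost without Dgcr8 control 1 or 2 or Dgcr8 iKO replicate 1 (adjusted p of 0.071 to 0.094), and the Dicer iKO call of Epha5 in 3 of the 6 fits that left out a library (adjusted p of 0.072 to 0.094). The Plxna1 call against contralateral nerves (0.29 on the log2 scale, adjusted p = 0.016) was lost without contralateral replicate 1 or 4 (adjusted p = 0.056 and 0.057) or crushed replicate 3 (adjusted p = 0.052). In this sense 9 of the 22 members that rose in both crush comparisons (40.9%), and 6 of the 20 that fell in both (30%), were called the same way in both mutants, where the shares over all genes were 22.4% of 5147 and 17.5% of 4291. Genes that the mutants did not test were not left out of the 5147 and 4291. Sema4f passed the filter in all 4 comparisons through the crushed or mutant libraries alone. Efna2, among the 22, did so in both crush comparisons. Both are in these counts though they were tested because they were high there. Counted from the mutants, 90% of the 10 members that rose in both also rose in both crush comparisons, against 82.7% of 1394 genes. Of those that fell, 100% of 6 members and 80.3% of 933 genes did so. Since the 2 crush comparisons share the crushed libraries, these are counts without a test.

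A direct test of the difference between the mutants gave no member. By edgeR's quasi-likelihood test of the interaction, 0 of 59 members were higher and 0 lower, where 0.00738% and 0.00738% of 13552 genes were called, 1 gene in each direction. An unadjusted p of at most 0.05 was reached by 13 members and by 1861 of all genes. DESeq2 called 3 of these members, Ephb2, Sema7a and Unc5c, higher, and over all genes 172 higher and 68 lower. The difference of the log2 fold changes (Dgcr8 minus Dicer) was 2.47 ± 0.59 (SE), unadjusted p = 0.001, adjusted p = 0.14 for Unc5c and 1.61 ± 0.46 (SE), unadjusted p = 0.0039, adjusted p = 0.18 for Ephb2. For Sema7a it was 1.06 ± 0.24 (SE), unadjusted p = 7.6e-04, adjusted p = 0.14. A call in one mutant alone, as for Efnb2, Ntn1 or Slit2, is therefore not shown to differ between the mutants. Without Dicer control 3, the interaction was called for 5 members in the higher direction (Efnb3, Ephb2, Ntn1, Ntn4 and Unc5c) and 1, Sema5a, in the lower direction. Over all 13791 genes of that fit, 320 were called higher and 81 lower. The Dicer controls left in it were 1 and 2, the libraries with the most Cldn1.

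Some members followed Cldn1, 1 of the 4 perineurial markers, across the 12 iKO libraries. Ntn1 was at 203, 144 and 43.8 CPM in Dicer controls 1, 2 and 3 and at 80.1, 129 and 122 CPM in Dicer iKO nerves. Controls 1 and 2, the libraries with the most Cldn1, were above all mutants, and control 3 was below them. Efnb3 had 68.4, 39.9 and 9.73 CPM in the Dicer controls against 9.05, 26.6 and 17.03 CPM in the mutants, and Sema3d had 102, 60.03 and 9.32 against 11.3, 38.99 and 40.6 CPM, with control 3 lowest of the controls for both.
In a fit of all 12 libraries with the log2 level of Cldn1 as a covariate, chosen after these values were seen, 5 members (Ntn1, Efnb3, Sema3d, Ntn4 and Ephb2) had a positive slope and 1 (Epha2) a negative one. Of 13552 genes, 1.46% had a positive and 0.0369% a negative slope at an adjusted p of at most 0.05. The slope of Ntn1 was 0.64 on the log2 scale for each doubling of Cldn1 (adjusted p = 7.4e-05), and that of Efnb3 was 0.95 (adjusted p = 8.8e-05).

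**Figure D5:**
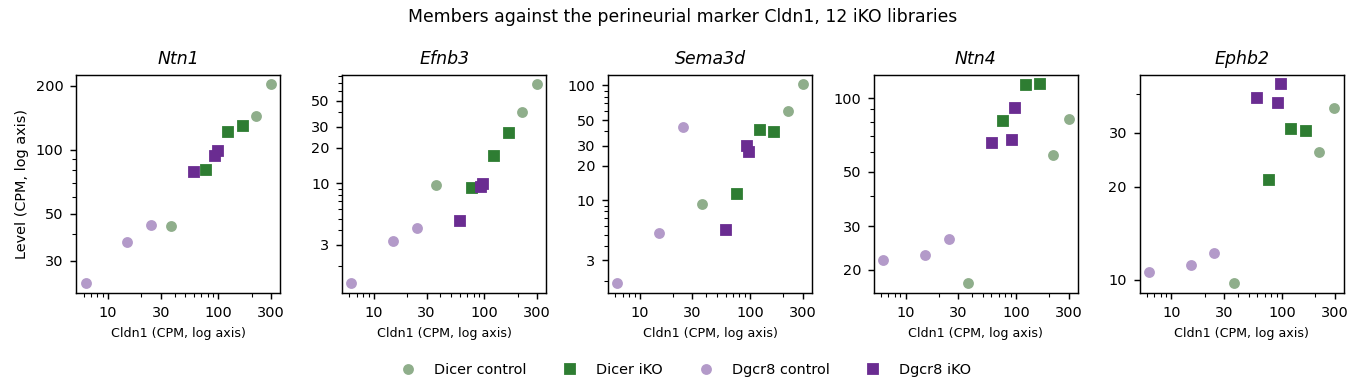
Level of 5 members (vertical axis, CPM, log axis) against the level of Cldn1 (horizontal axis, CPM, log axis) in the 12 iKO libraries, with circles for controls and squares for mutants. Dicer controls 1 and 2 lie at the right end at 299.8 and 218 CPM of Cldn1, and Ntn1 and Efnb3 are highest in these 2 libraries.

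These libraries changed what the Dicer comparison showed for the same genes. With Dicer control 3 as the only control, the log2 fold change of Ntn1 was 1.33 where the full comparison gave -0.24 (adjusted p = 0.75). Ephb2, at 36.1, 25.9 and 9.73 CPM in the controls and 21.03, 30.4 and 30.7 CPM in the mutants, changed from 0.20 (adjusted p = 0.76) to 1.48. Efnb2, at 18.1, 15.7 and 6.89 and 12.4, 18.98 and 26.9 CPM, changed from 0.52 (adjusted p = 0.38) to 1.49, and Ntn4 from 0.96 (adjusted p = 0.18) to 2.54. These values restate that control 3 was low for these genes and carry no test. Ntn4 and Unc5c were also higher in controls 1 and 2 than in control 3, with 82.3, 58.7 and 17.6 CPM for Ntn4 and 11.9, 12.03 and 3.11 CPM for Unc5c.

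With Cldn1 as a covariate, 15 members were higher and 10 lower in Dicer iKO nerves, including all 12 higher and all 7 lower calls of the comparison without it. In Dgcr8 iKO nerves 14 members were higher and 5 lower with the covariate, and 13 of the 28 higher and 4 of the 13 lower calls were shared. Calls over all genes fell there too, from 3165 higher and 2733 lower of 13252 to 1307 and 979 of 13552. In Dicer iKO nerves they went from 1605 and 1159 of 13045 to 2191 and 1584 of 13552. Among the calls that were lost in Dgcr8 iKO nerves were Efnb2, Ephb2, Ntn1, Ntn4 and Unc5c. Ntn1 then had a log2 fold change of -0.26 ± 0.18 (SE), adjusted p = 0.35. The levels of Cldn1 did not overlap between Dgcr8 controls and Dgcr8 iKO nerves, so Cldn1 and the genotype cannot be told apart in that comparison. The perineurial markers Slc2a1 and Itgb4 moved the opposite way there, at 129.6, 167 and 149 CPM and 418, 709 and 391 CPM in controls and 102, 111 and 90.7 CPM and 267, 327 and 270.0 CPM in mutants, so the covariate stands for the level of Cldn1 and not for that of the whole list. Sema4f, Nrp1, Plxna4, Plxna1, Sema4d, Epha4, Ephb1 and Robo4 were called in the same direction in both mutants with the covariate.

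Other cell types also moved with the mutants. Macrophage markers summed to 791 to 1069 CPM in Dicer iKO nerves against 162 to 496 CPM in their controls, and to 546 to 1002 CPM in Dgcr8 iKO nerves against 175 to 213 CPM, and 5 and 6 of 7 rose. Fibroblast markers summed to 19237 to 20487 CPM in Dicer iKO nerves against 4556 to 14762 CPM, and to 14499 to 17417 CPM in Dgcr8 iKO nerves against 6064 to 8016 CPM. Repair SC markers summed to 273 to 315 CPM in Dicer iKO nerves against 76.6 to 158 CPM, and to 374 to 472 CPM in Dgcr8 iKO nerves against 89.0 to 94.1 CPM. Proliferation markers summed to 76.4 to 108 CPM in Dicer iKO nerves against 5.81 to 13.9 CPM in their controls. In Dgcr8 iKO nerves they summed to 204 to 303 CPM against 7.98 to 11.8 CPM, and all 5 rose in both mutants. Myelinating SC markers summed to 15723 to 20711 CPM in Dicer iKO nerves against 21892 to 35721 CPM, and to 9572 to 19090.2 CPM in Dgcr8 iKO nerves against 30260.5 to 34334 CPM, and 1 and 5 of 6 fell. Their part in the changes of the guidance genes was not tested.

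Of the 85 partners and effectors of these pathways, 83 are in the tables. At 3 dpc 37 of 81 tested rose (45.7%) and 25 fell (30.9%) against uncrushed nerves, where 33.8% and 33.4% of all genes did. Against contralateral nerves, 38 of 79 rose (48.1%) and 27 fell (34.2%), where 33.5% and 32.9% of all genes did. In Dicer iKO nerves 8 of 75 rose (10.7%) and 7 fell (9.33%), close to the 12.3% and 8.88% of all genes. In Dgcr8 iKO nerves 31 of 76 rose (40.8%) and 10 fell (13.2%), where 23.9% and 20.6% of all genes did. Gpc1, a glypican that binds Slits, rose by 4.68 ± 0.14 (SE) at 3 dpc against uncrushed nerves and by 2.303 ± 0.15 in Dgcr8 iKO nerves on the log2 scale (adjusted p = 1.6e-10 and 1.9e-06), with 0.61 ± 0.37 in Dicer iKO nerves (adjusted p = 0.28).
Members of the collapsin response mediator family, which relay semaphorin signals to the cytoskeleton, went different ways: Dpysl3 rose by 3.14 ± 0.12 and Dpysl2 fell, at -0.94 ± 0.086, against uncrushed nerves (adjusted p = 5.8e-10 and 1.4e-06). In Dgcr8 iKO nerves the corresponding log2 fold changes were 1.98 ± 0.15 and -0.68 ± 0.16 (adjusted p = 5.1e-06 and 0.0055). Met, a receptor kinase that associates with B-type plexins, had 3.32 ± 0.13 against uncrushed nerves (adjusted p = 8.8e-10). The Rac GTPase-activating protein gene Chn2 had -3.02 ± 0.13 (adjusted p = 1.9e-09). The netrin receptor Dcc had -1.77 ± 0.46 (adjusted p = 0.0048) and was not tested in the iKO libraries. Ptprc, which is the pan-leukocyte gene CD45, rose in all 4 comparisons, by 3.21 ± 0.17, 3.19 ± 0.20, 2.04 ± 0.29 and 2.56 ± 0.15 on the log2 scale.

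In the GENCODE M21 annotation, exons of 14 members overlap an exon of a gene on the opposite strand, by 33 to 407 bases, and exons of 3 members overlap another gene on their own strand. Ephb1, Epha6, Ephb4, Plxna1, Plxna4, Plxnb1, Unc5a and Unc5c are among the first and Nrp1 is among the second. Whether strand was used in counting is not given in the sources used here, so reads of these genes and of their overlapping partners may not be separated.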

How the data were processed

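RNA-seq libraries were analysed from 11 SNs of the crush experiment and 12 SNs of the iKO experiment. The authors trimmed reads with Trimmomatic, aligned them with STAR to the Ensembl GRCm38 genome and quantified transcripts with RSEM, and they deposited expected counts, TPM and FPKM per transcript and library. For each gene, the expected counts deposited for its transcripts were added up, and the sum was rounded. The authors' TPM values, which are scaled to transcript length and library, served for the order of genes within a group, and the authors' FPKM values for the same order as an alternative. The labels and the methods of the study name different library kits for the crush experiment, and this could not be settled here.

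Genes were filtered with filterByExpr (minimum count of 10), scaled by TMM and tested in each comparison with edgeR (version 4.0.16, limma 3.58.1, R 4.3.3) by the quasi-likelihood test. Only the groups compared entered a fit, apart from the interaction, which used all 12 iKO libraries. P-values were adjusted over all genes tested (Benjamini-Hochberg), and a gene was called at an adjusted p of at most 0.05. The SE of a log2 fold change was its absolute value over the root of the F statistic. CPM printed per library used TMM factors from the whole experiment. The procedure was tested on simulated counts with known fold changes.

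The members, the partner and marker lists and the tests were chosen with earlier results of these data known. Values per library are given for up to 8 called members per direction and comparison with the largest log2 fold change, a mean of at least 1 CPM and no overlap between groups, and for 15 members chosen for their known roles in nerves or vessels. 1 gene of the marker lists is not reported here and was left out of their sums. The partner genes named, and Efnb3, Sema3d, Robo3 and Ntn5, were chosen after their values were seen. Replicates were the libraries that the labels number within a group, and p-values measure only the spread between these libraries. None of 27 replicate pairs agreed within sampling noise (chi-square per degree of freedom of 3.86 to 40.3). Alternatives were RLE scaling, no filter, DESeq2 (version 1.42.0), protein-coding genes only, a 2-fold limit, a replicate block, all groups in one fit and leaving out each library. A fit with Dicer control 3 alone and a fit with Cldn1 as a covariate were added after seeing the data.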

Additional observations from a re-analysis of the deposited data

Results flagged for a closer look

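The values of each member with a mean of at least 1 CPM in the 4 crushed or in the 4 contralateral libraries were searched for 1 library far from the other 3 by the gap divided by the range. Of 116 groups of values tested, 6 held such a library, close to the 5.8 that chance gives at about 1 in 20. Efna2 was at 2.48 CPM in crushed replicate 3 and at 2.17 to 2.20 CPM in the others. Ntn1 was at 21.6 CPM in crushed replicate 2 and at 18.1 to 18.5 CPM in the others. Plxna1 was at 87.9 CPM in crushed replicate 4 and at 100.6 to 103 CPM in the others. Plxna2 was at 14.8 CPM in crushed replicate 1 and at 18.6 to 18.7 CPM in the others. Sema3g was at 65.1 CPM in crushed replicate 1 and at 52.1 to 54.3 CPM in the others. Unc5c was at 6.22 CPM in crushed replicate 4 and at 3.91 to 4.22 CPM in the others. Groups of 3 libraries were not searched.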

How the results depend on the processing

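Of 2973 values of 36 named members under the alternatives, 2861 kept their direction and their side of the threshold, 79 lost the call, 30 gained one and 3 reversed. The values that kept their side include those of members not called in the main fit and of comparisons without any called member. Of the 79, 10 were lost without Dicer iKO replicate 2 and 10 without Dicer iKO replicate 3. Ntn1 reversed in Dicer iKO nerves with control 3 alone (1.33 on the log2 scale), and with Cldn1 as a covariate Ntn1 and Sema4g reversed in Dgcr8 iKO nerves (-0.26 and 0.049). Of 264 counts, 234 stayed within 1.5 times. With a 2-fold limit the members called higher numbered 12 against uncrushed and 13 against contralateral nerves, and those called lower numbered 1 in Dicer and 6 in Dgcr8 iKO nerves. Over all genes the corresponding numbers were 2673 of 17433 and 2437 of 16667 higher, and 214 of 13045 and 926 of 13252 lower. Correlations of same-numbered deviations were -0.19 to 0.21, which cannot show whether libraries share a mouse. With the replicate block 7 members were higher and 3 lower in Dicer iKO nerves, with 3 partners higher and 0 lower. Over all genes 687 of 13045 were higher and 242 lower in that fit. With Dicer control 3 alone, 14 members were lower and 13 partners higher. With Cldn1 as a covariate, 14 partners were higher and 14 lower in Dicer iKO nerves, and in Dgcr8 iKO nerves 14 members were higher, 5 lower and 14 partners higher. DESeq2 called 3 members higher in the interaction. Leaving out 1 library gave 7 to 13 members higher and 1 to 10 lower, and 3 to 12 partners higher and 0 to 11 lower, in Dicer iKO nerves, and 0 to 5 members higher and 0 to 1 lower in the interaction. The same step gave 23 to 29 higher and 10 to 13 lower in Dgcr8 iKO nerves, 23 to 26 and 21 to 24 against uncrushed nerves, and 20 to 24 and 20 to 21 against contralateral nerves. The median of all genes against uncrushed nerves moved from -0.032 to -0.39 on the log2 scale with no filter and to -0.20 with all groups in one fit. Apart from the added alternatives and the constructions that leave out libraries, the cause of these differences was not tested. Members under about 2 CPM rest on few counts, since 3 counts are 0.234 to 0.536 CPM.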

Other observations

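Of the members that were not tested in the mutants, several had higher levels in the crush libraries than in the iKO libraries. Robo3, a receptor of commissural neurons, lay between 0.566 and 2.52 CPM in the 11 crush libraries and between 0 and 0.532 CPM in the 12 iKO libraries. Unc5d lay between 0.815 and 4.09 CPM and 0 and 0.287 CPM, and Sema3a between 2.04 and 8.69 CPM and 0.277 and 1.997 CPM. Epha8 lay between 0.0802 and 1.19 CPM in the crush libraries and was at 0 in all 12 iKO libraries, where 3 counts are at most 0.536 CPM. The 2 experiments used different mice and, per the labels, different kits, and no test was made between them.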
